A study of Homo sapiens with 10 samples.

Results

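The 58 genes described here drive or carry out mitosis: the kinases and cyclins that start it, the checkpoint that delays it, and the proteins that build kinetochores, spindles, compact chromosomes and the cleavage furrow. They were named by function and matched by symbol, on a list drawn up with earlier results of these data known, and all 58 were found among the 26485 genes listed in each library. Polyadenylated RNA was sequenced from SW480, a line from a human colorectal adenocarcinoma, after flow sorting on ROBO1, a receptor for SLIT guidance proteins. ROBO1pos (SW480-CBC in the labels) and ROBO1neg (SW480-RSC) each had 5 libraries, all labelled wild type and grown in the same medium with serum, and the only comparison is between these populations. The model is 1 cell line, no label gives a cell cycle phase or a synchronising treatment, and no label ties the replicates to separate cultures, so each p-value reflects only how far these libraries vary, which may be technical variation.

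Entry into mitosis is set by cyclin B bound to CDK1, which CDC25 phosphatases switch on and PLK1 and the Aurora kinases assist. Sister chromatids stay joined until every kinetochore, the protein assembly on the centromere, is attached to spindle microtubules. Until then the spindle checkpoint blocks CDC20 and the anaphase-promoting complex, a ubiquitin ligase that marks securin and cyclin B for destruction. Transcription of most of these genes is held down in early cycle by the DREAM complex, which binds the CHR element of their promoters, and raised late in the cycle by MYBL2 and FOXM1 together with NF-Y at CCAAT boxes. In bulk RNA a smaller share of dividing cells and less RNA per dividing cell cannot be told apart.

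The letters of these promoters show what the genes share beside their function. RefSeq promoter windows (GRCh38.p14) of 300 bases, 250 before and 50 after the annotated start, were matched by symbol for 52 of the 58 genes. The CHR letters TTTGAA, on either strand, stood in a window of 40 of the 52 (76.9%), against 18.2% of all 27305 genes with a window and 13.9% of the tested ones. CCAAT, on either strand, stood in a window of 43 of the 52 (82.7%), against 39.7% of all genes with a window and 42.5% of the tested ones. An E2F-like motif (TTTCCCGC, TTTGGCGC, TTTCGCGC or TTTGCCGC, either strand) stood in 4 of the 52 (7.69%), against 3.99% of all genes and 6.39% of the tested ones. Matches of TTTGAA and ATTGG can share a base, as they do before the start of CDCA8, and genes with several starts counted once if any window held the motif. The CHR letters were found in 21 of the 29 matched genes called towards ROBO1pos and in 8 of the 9 called towards ROBO1neg. CCAAT was found in 24 of those 29 and in 6 of those 9. Within 100 bases before the start it was found in 21 of the 29 and in 4 of the 9, against 26.1% of the tested genes. Shown are 3 genes of each direction, PLK1, INCENP and PRC1 (higher in ROBO1pos) and ECT2, ANLN and CEP55 (higher in ROBO1neg). They were chosen after their values were seen, as examples of both directions that carry the CHR letters. Each line gives the 150 bases before the annotated start, 5′ to 3′, with TTTGAA or its reverse complement TTCAAA and CCAAT or its reverse complement ATTGG in capitals.
PLK1: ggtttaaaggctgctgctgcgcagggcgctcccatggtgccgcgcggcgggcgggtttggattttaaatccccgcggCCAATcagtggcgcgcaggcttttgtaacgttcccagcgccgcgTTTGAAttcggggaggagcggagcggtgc
INCENP: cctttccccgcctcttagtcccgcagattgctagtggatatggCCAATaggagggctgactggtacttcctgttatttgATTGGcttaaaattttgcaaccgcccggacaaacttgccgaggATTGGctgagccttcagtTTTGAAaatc
PRC1: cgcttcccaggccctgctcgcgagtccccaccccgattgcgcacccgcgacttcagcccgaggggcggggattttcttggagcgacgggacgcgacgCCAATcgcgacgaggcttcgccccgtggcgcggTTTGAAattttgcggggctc
ECT2: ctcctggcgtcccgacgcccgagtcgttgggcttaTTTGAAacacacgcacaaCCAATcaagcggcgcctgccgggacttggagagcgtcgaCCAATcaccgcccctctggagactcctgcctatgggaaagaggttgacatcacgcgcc
ANLN: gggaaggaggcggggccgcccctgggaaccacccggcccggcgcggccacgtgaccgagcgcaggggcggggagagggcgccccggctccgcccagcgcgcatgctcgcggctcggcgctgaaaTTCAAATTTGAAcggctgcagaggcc
CEP55: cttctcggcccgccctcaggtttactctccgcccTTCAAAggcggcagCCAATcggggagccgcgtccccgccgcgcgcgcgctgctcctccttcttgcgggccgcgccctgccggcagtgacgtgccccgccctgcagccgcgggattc
These stretches lie at chr16:23678739-23678888 (plus strand), chr11:62123861-62124010 (plus strand), chr15:90994536-90994685 (minus strand), chr3:172750576-172750725 (plus strand), chr7:36389712-36389861 (plus strand) and chr10:93496462-93496611 (plus strand). In PLK1 the CHR letters begin 29 bases before the start and CCAAT 73 bases before it. In ANLN TTCAAA and TTTGAA abut, beginning 26 and 20 bases before the start, and the printed stretch holds no CCAAT. A match is a description of the letters, not a measurement of binding.

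Libraries held between 23228686 and 29539100 reads on genes, so 1 CPM (a read count scaled to library size, with edgeR's TMM factors) rested on 23.2 to 29.5 reads. ROBO1 lay between 400.0 and 462 CPM in ROBO1pos and between 5.63 and 9.04 in ROBO1neg, as the sort requires. Of the epithelial markers, EPCAM, KRT8, KRT18, CDX2, VIL1 and CDH1 were all detected in both populations, with summed levels of 5310.5 to 6470.5 CPM in ROBO1pos and 7187 to 9529 in ROBO1neg. KRT8 and KRT18 made up most of these sums and were higher in ROBO1neg (log2 fold changes -0.79 and -0.81), while VIL1 (503 ± 23.3 CPM in ROBO1pos against 27.7 ± 3.14 in ROBO1neg) and EPCAM (679.9 ± 22.9 CPM in ROBO1pos against 303 ± 12.8 in ROBO1neg) were higher in ROBO1pos. The 13 markers of leukocytes, endothelium, fibroblasts, red cells and hepatocytes summed to 13.4 to 19.0 CPM in ROBO1pos and 16.4 to 23.5 in ROBO1neg, with COL3A1 and HBB at 0 in every library and PTPRC at a mean of 0.0479 CPM in ROBO1pos and 0 in ROBO1neg. Of those 13, 5 were tested and all were called, ALB and LUM higher in ROBO1pos and COL1A1, VWF and CD68 higher in ROBO1neg, with means of at most 14.3 CPM.

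The mitotic genes differed between the populations in small steps, more often towards ROBO1pos. Of the 58, 33 were called higher in ROBO1pos, 10 higher in ROBO1neg and 15 were not called (edgeR's quasi-likelihood F-test, Benjamini-Hochberg adjusted p under 0.05 over all 14932 genes tested). All 58 passed the filter on low counts. Among all genes tested, 41.6% were called higher in ROBO1pos, 40.4% higher in ROBO1neg and 82.0% in either direction. The 43 called of 58 (74.1%) are thus no larger a share than elsewhere. Counts by role, given below, are read against these shares. The median log2 fold change, ROBO1pos minus ROBO1neg, was 0.21 over the 58 and 0.019 over all genes tested. With the median of each gene's chromosomal neighbours taken off, as described further on, it was 0.039. Relative to those neighbours 22 genes were called higher in ROBO1pos and 17 higher in ROBO1neg. Such a relative call need not have the direction of the gene's own level. Of the 33 called higher in ROBO1pos, 17 kept that call and 5 were called the other way. Of the 10 called higher in ROBO1neg, 6 kept that call and 2 were called the other way. Sizes were small: the median absolute log2 fold change was 0.28 for the 58 and 0.58 for all genes tested, and 2 of the 58 (3.45%) reached 1 or more either way against 30.3% of all genes. Against a 1.5-fold threshold (edgeR's glmTreat), CENPF remained higher in ROBO1pos and SMC4 and ECT2 higher in ROBO1neg, 3 of 58 (5.17%) against 41.8% of all genes (19.7% towards ROBO1pos and 22.1% towards ROBO1neg). The libraries of the populations did not overlap for 22 of the 58 with ROBO1pos higher and for 7 with ROBO1neg higher, 29 in all, against 71.9% of all genes tested (36.1% and 35.7%).

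**Figure D1:**
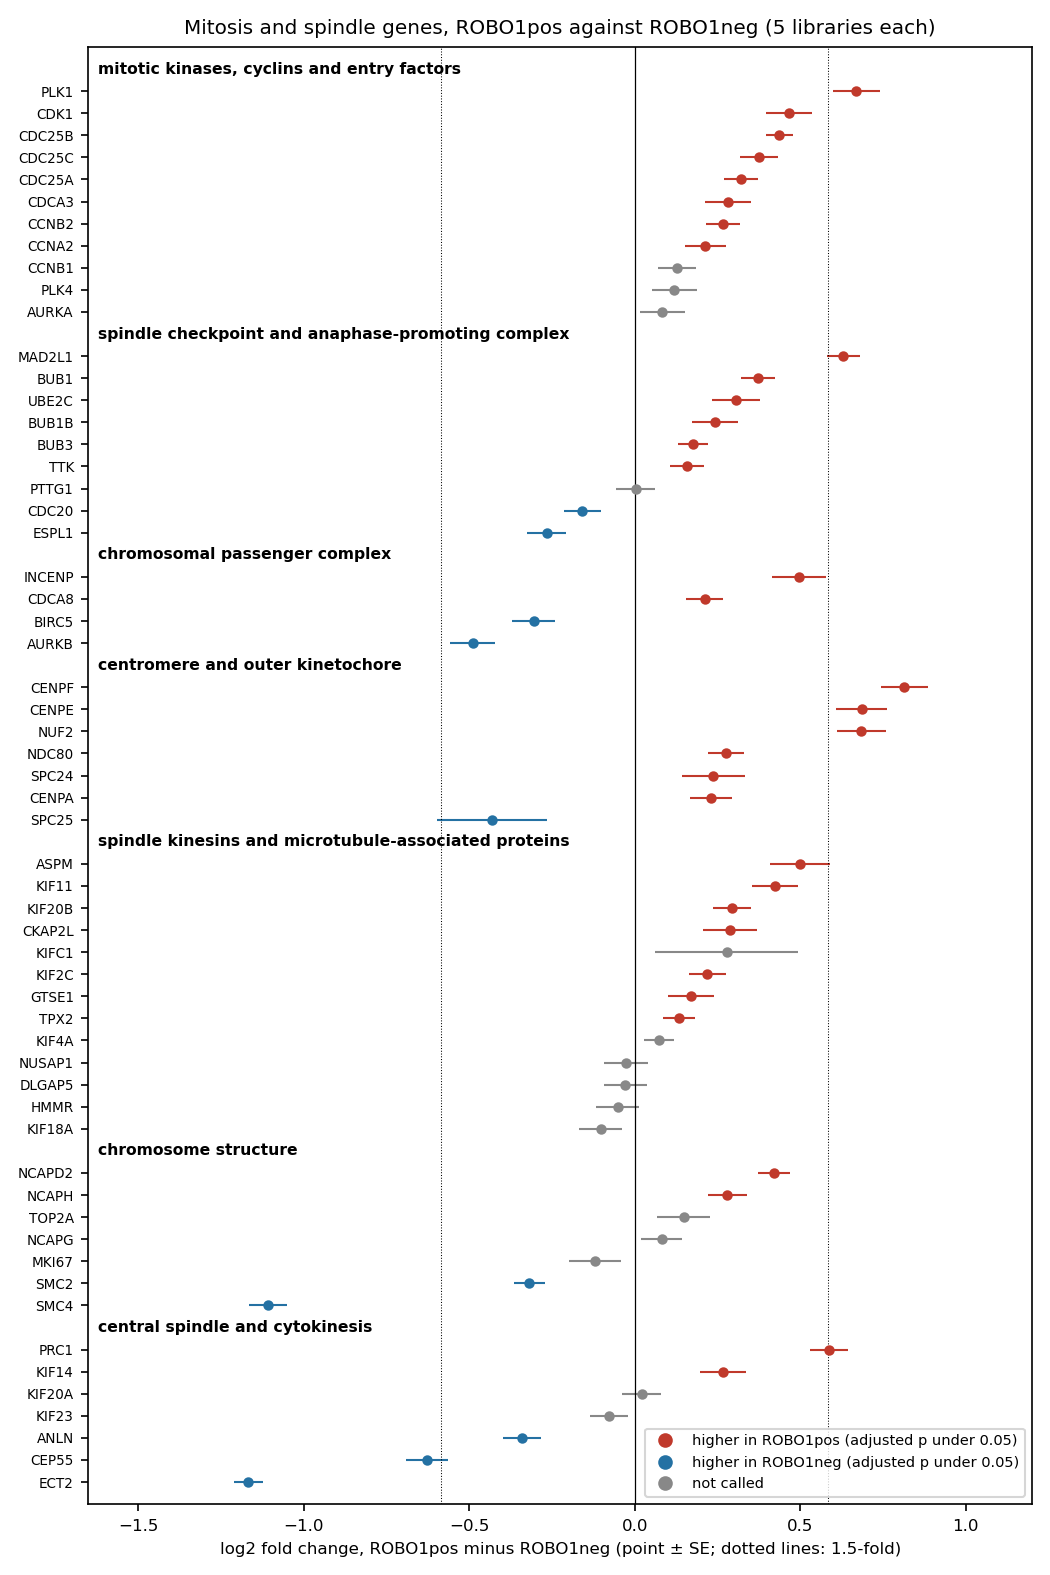
Log2 fold change (ROBO1pos minus ROBO1neg, x axis) of each of the 58 genes with its SE, grouped by role, over 5 libraries per population; red points were called higher in ROBO1pos, blue ones higher in ROBO1neg and grey ones were not called. The 33 red points lie between 0.13 for TPX2 and 0.81 for CENPF, and only SMC4 (-1.11) and ECT2 (-1.17) lie below -1.

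**Figure D2:**
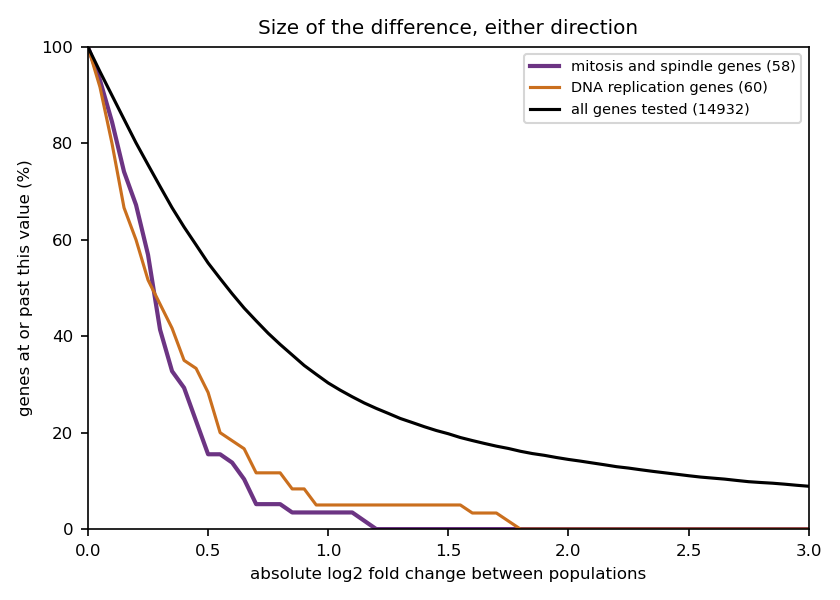
Percent of genes (y axis) whose absolute log2 fold change between the populations is at or past the value on the x axis, for the 58 mitotic genes, 60 DNA replication genes and all 14932 genes tested. At 0.5 the share is 15.5% for the mitotic genes, 28.3% for the replication genes and 55.2% for all genes.

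The mitotic kinases, cyclins and entry factors included 8 of 11 called higher in ROBO1pos, and none was called higher in ROBO1neg. PLK1, the polo-like kinase of entry and spindle assembly, was at 80.8, 89.7, 90.97, 75.9 and 103 CPM in ROBO1pos replicates 1 to 5 and at 54.2, 53.4, 58.5, 58.01 and 52.8 CPM in ROBO1neg replicates 1 to 5. Every ROBO1pos library lay above every ROBO1neg library (0.67 on the log2 scale, SE 0.07, adjusted p = 7.8e-07 by edgeR). CDC25B, the phosphatase that first activates CDK1, was at 349, 323, 326, 318 and 344 CPM in ROBO1pos against 253, 237, 254, 247 and 236 in ROBO1neg, again without overlap (0.44 on the log2 scale, SE 0.04, adjusted p = 1.9e-07 by edgeR). CDK1 itself was at 125 ± 7.44 CPM in ROBO1pos against 90.7 ± 9.58 in ROBO1neg (mean ± SD, n = 5 here and below), a log2 fold change of 0.47. The other CDC25 phosphatases were higher in ROBO1pos too, with log2 fold changes of 0.38 for CDC25C and 0.32 for CDC25A. Of the mitotic cyclins, CCNB2 (0.27) and CCNA2 (0.21) were higher in ROBO1pos, as was CDCA3 (0.28), a factor of mitotic entry. CCNB1, the main cyclin partner of CDK1, was at 174 ± 13.4 CPM in ROBO1pos against 159 ± 8.96 in ROBO1neg and did not pass (edgeR adjusted p = 0.0531), though it did under upper quartile scaling, library size scaling and the filter of 5 CPM. PLK4, the kinase of centriole duplication (0.12), and AURKA, the centrosomal Aurora kinase (0.084), did not pass. With the neighbours' median taken off, 5 of the 11 were called higher in ROBO1pos relative to those neighbours and 2 higher in ROBO1neg. CDK1 (0.11) and CCNB2 (0.0057) were then not called.

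Of the 9 genes of the checkpoint and anaphase-promoting complex, 6 were higher in ROBO1pos, 2 higher in ROBO1neg and 1 did not pass. MAD2L1, which encodes the checkpoint protein MAD2 that holds CDC20, was at 94.9, 108, 103, 96.2 and 108 CPM in ROBO1pos against 63.2, 67.96, 68.8, 68.3 and 61.3 in ROBO1neg. The lowest ROBO1pos library was above the highest ROBO1neg library (0.63 on the log2 scale, SE 0.05, adjusted p = 3.9e-08 by edgeR). BUB1, a checkpoint kinase of the kinetochore, was at 145 ± 10.8 CPM in ROBO1pos against 112 ± 3.903 in ROBO1neg (0.37 on the log2 scale, SE 0.05, adjusted p = 1.2e-05 by edgeR), and was not called with the neighbours' median taken off (0.079). The checkpoint genes MAD1L1 (-0.041) and ZW10 (0.024), listed beside the 58, did not pass. From the same list ZWILCH (0.55), SPDL1 (0.54) and KNTC1 (0.23) were called higher in ROBO1pos. That list had 15 genes called higher in ROBO1pos and 10 higher in ROBO1neg of 32 tested. Smaller differences in the same direction were called for UBE2C (0.31), BUB1B (0.24), BUB3 (0.18) and TTK (0.16), of which UBE2C is the ubiquitin-conjugating enzyme of the complex and the rest are checkpoint proteins. ESPL1, the protease separase that cuts cohesin, went the other way, at 62.5, 62.04, 72.8, 60.2 and 71.3 CPM in ROBO1pos against 85.8, 75.97, 76.1, 77.4 and 80.2 in ROBO1neg (-0.27 on the log2 scale, SE 0.06, adjusted p = 0.00085 by edgeR). CDC20, the activator of the complex, was also higher in ROBO1neg by a small step (-0.16 on the log2 scale, SE 0.06, adjusted p = 0.0171 by edgeR), its libraries overlapped, and it did not pass under upper quartile scaling. PTTG1, which encodes securin, the inhibitor of separase, was at 116 ± 6.24 CPM in ROBO1pos against 116 ± 9.87 in ROBO1neg and did not pass (edgeR adjusted p = 0.962). PTTG1 has near-identical copies, PTTG2 and PTTG3P, which were below 1 CPM on average, so reads could be shared between them.

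The 4 subunits of the chromosomal passenger complex, which corrects faulty attachments and then moves to the midzone, split evenly. INCENP, its scaffold, was at 102, 114, 122, 105 and 143 CPM in ROBO1pos against 85.8, 75.7, 89.8, 84.8 and 79.5 in ROBO1neg (0.50 on the log2 scale, SE 0.08, adjusted p = 6.7e-05 by edgeR), with replicate 5 of ROBO1pos the highest. CDCA8, which encodes borealin, was higher in ROBO1pos too (0.21). AURKB, the kinase of the complex, was at 48.4, 43.03, 50.1, 43.7 and 46.9 CPM in ROBO1pos against 68.1, 59.9, 69.4, 71.4 and 57.2 in ROBO1neg, where all libraries were higher (-0.49 on the log2 scale, SE 0.07, adjusted p = 9.7e-06 by edgeR). BIRC5, which encodes survivin, was at 82.4 ± 6.84 CPM in ROBO1pos against 102 ± 7.64 in ROBO1neg (-0.31 on the log2 scale, SE 0.06, adjusted p = 0.00053 by edgeR). AURKB and BIRC5 both lie on chromosome 17, where the tested genes nearest to each had a median of -0.41 and -0.26; with these taken off, neither was called.

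Of the 7 kinetochore genes, 6 were called higher in ROBO1pos and 1 higher in ROBO1neg. With the neighbours' median taken off, 2 (NUF2 and CENPE) were called higher in ROBO1pos relative to those neighbours. Another 3 (SPC24, SPC25 and CENPA) were called higher in ROBO1neg, though the levels of SPC24 and CENPA themselves were higher in ROBO1pos. The median of the 7 was then -0.043, and CENPF was at -0.043. CENPF, a large protein of the outer kinetochore, was at 449, 454, 528, 395 and 461 CPM in ROBO1pos against 279.8, 237, 273, 268 and 241 in ROBO1neg. The populations did not overlap, and the log2 fold change of 0.81 (SE 0.07, edgeR adjusted p = 9.1e-08) was the highest of the 58. NUF2, a subunit of the NDC80 complex that grips microtubules, was at 45.97, 43.5, 48.97, 38.3 and 47.8 CPM in ROBO1pos against 29.4, 31.4, 25.8, 26.6 and 26.6 in ROBO1neg (0.68 on the log2 scale, SE 0.07, adjusted p = 8.6e-07 by edgeR). CENPE, the kinesin of the kinetochore, had a log2 fold change of 0.69, at 94.4 ± 9.98 CPM in ROBO1pos against 58.7 ± 4.98 in ROBO1neg. The partners of NUF2 in the NDC80 complex differed from it in size and direction, with NDC80 at 0.28, SPC24 at 0.24 and SPC25 at -0.43. SPC25 was the only gene of this group called higher in ROBO1neg, at 2.07 ± 0.318 CPM in ROBO1pos against 2.802 ± 0.541 in ROBO1neg, but its call was lost without ROBO1pos replicate 2 or without ROBO1neg replicate 1, 3 or 4, and under upper quartile scaling. The call of SPC24 was lost in 8 of the 10 fits that left out 1 library. CENPA, the histone variant that marks centromeres, was at 0.23.

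Spindle motors and microtubule-associated proteins included 7 of 13 called higher in ROBO1pos, and 6 did not pass. After the neighbours' median was taken off, 4 were called higher in ROBO1pos relative to those neighbours and 2 higher in ROBO1neg. KIF11, the motor that pushes the poles apart, was at 142, 135, 154, 129 and 149 CPM in ROBO1pos against 117, 93.4, 108, 114 and 95.6 in ROBO1neg (0.42 on the log2 scale, SE 0.07, adjusted p = 5.6e-05 by edgeR). ASPM, a spindle pole protein, was at 158 ± 19.02 CPM in ROBO1pos against 112 ± 13.5 in ROBO1neg (0.50 on the log2 scale, SE 0.09, adjusted p = 0.00016 by edgeR), also without overlap of libraries. Called by smaller steps were KIF20B (0.29), CKAP2L (0.29), KIF2C (0.22), GTSE1 (0.17) and TPX2 (0.13), among them TPX2, the activator of AURKA, and KIF2C, a microtubule depolymeriser. Leaving out 1 library ended the call of GTSE1 in 7 of 10 fits and that of TPX2 in 3. The genes KIF4A (0.074), KIF18A (-0.10), HMMR (-0.052), DLGAP5 (-0.028) and NUSAP1 (-0.027) did not pass, nor did KIFC1 (0.28), a minus-end motor. KIF4A has a near-identical copy, KIF4B, which could share its reads. KIFC1 was at only 0.708 ± 0.109 CPM in ROBO1pos against 0.579 ± 0.1401 in ROBO1neg, with 11 to 23 reads per library. Of the 20 listed genes nearest to it on chromosome 6, 14 were below 1 CPM and their median was 0.0974 CPM. Reads aligned to several places, between 20.5% and 26.2% of each library's listed reads, were not assigned to genes; their part in the level of KIFC1 was not tested.

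Of 7 genes of chromosome structure, 2 were called higher in ROBO1pos, 2 higher in ROBO1neg and 3 did not pass. Condensin I joins the ATPases SMC2 and SMC4 to the subunits NCAPD2, NCAPG and NCAPH. SMC4 was at 231, 234, 259, 233 and 227 CPM in ROBO1pos against 554, 495, 518, 534 and 450.02 in ROBO1neg, so that every ROBO1neg library was above every ROBO1pos library (-1.11 on the log2 scale, SE 0.06, adjusted p = 3.1e-10 by edgeR). SMC2 was higher in ROBO1neg as well, at 118 ± 7.08 CPM in ROBO1pos against 147 ± 6.37 in ROBO1neg (-0.32 on the log2 scale, SE 0.05, adjusted p = 2.7e-05 by edgeR). NCAPD2 had the opposite direction, at 424, 417, 456, 419 and 473 CPM in ROBO1pos against 326, 311, 355, 328 and 315 in ROBO1neg (0.42 on the log2 scale, SE 0.05, adjusted p = 2e-06 by edgeR). NCAPH followed NCAPD2 (0.28 on the log2 scale, SE 0.06, adjusted p = 0.00046 by edgeR), and NCAPG did not pass (0.082). SMC2 and SMC4 lie on chromosomes 9 and 3, where their nearest tested genes had medians of -0.72 and -0.72. Once the neighbours' median was taken off, SMC4 was still called towards ROBO1neg. On this relative scale SMC2 was called towards ROBO1pos and NCAPH towards ROBO1neg, although their own levels went the other way. Of the 7 genes, 3 were then called towards ROBO1pos and 4, MKI67 among them, towards ROBO1neg. In GENCODE v29, 16 of the 58 genes have exons that overlap those of another gene on the other strand, 11 of them by 100 bases or more. Exons of SMC4 overlap those of TRIM59 on the other strand over 1561 bases; TRIM59 had 21.2 CPM in ROBO1pos, 22.8 in ROBO1neg and was not called. They also overlap those of IFT80 on the other strand, over 229 bases, and IFT80 was higher in ROBO1neg (-0.70). NCAPD2 likewise overlaps MRPL51, over 463 bases, and MRPL51 had the same log2 fold change of 0.42, so reads of this pair may not be separated if strand was not used in counting. NCAPG overlaps LCORL over 1631 bases, and LCORL was not called (0.076). TOP2A, the topoisomerase that untangles chromatids, was at 695, 601, 742, 613 and 688 CPM in ROBO1pos against 681, 547, 622, 652 and 513 in ROBO1neg, an overlapping range that did not pass (0.15, edgeR adjusted p = 0.103). MKI67, which encodes the proliferation marker Ki-67, was at 359.97, 362, 436, 365 and 421 CPM in ROBO1pos against 466, 360.2, 459, 443 and 384 in ROBO1neg, and did not pass either (-0.12, edgeR adjusted p = 0.174).

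Cytokinesis genes included the largest of the 58 differences towards ROBO1neg, that of ECT2, with 3 of 7 called higher there and 2 in ROBO1pos. ECT2, the exchange factor that activates RHOA at the furrow, was at 111, 109, 113, 105 and 120.3 CPM in ROBO1pos against 249.95, 253, 255, 259 and 236 in ROBO1neg (-1.17 on the log2 scale, SE 0.04, adjusted p = 1.2e-11 by edgeR), the lowest log2 fold change of the 58. CEP55, a midbody protein of abscission, was at 44.03, 45.7, 49.9, 40.4 and 52.4 CPM in ROBO1pos against 75.4, 69.03, 72.1, 73.8 and 68.4 in ROBO1neg (-0.63 on the log2 scale, SE 0.06, adjusted p = 4.4e-07 by edgeR). ANLN, the furrow scaffold anillin, was at 236 ± 14.6 CPM in ROBO1pos against 298 ± 22.05 in ROBO1neg (-0.34 on the log2 scale, SE 0.06, adjusted p = 7.3e-05 by edgeR), and neither ANLN nor CEP55 overlapped between populations. PRC1, which bundles microtubules of the central spindle, had the other direction, at 191, 175, 197, 168 and 191 CPM in ROBO1pos against 132, 119, 127, 126 and 109.8 in ROBO1neg (0.59 on the log2 scale, SE 0.06, adjusted p = 3.4e-07 by edgeR). On its own strand, 2716 of the 4168 exon bases of PRC1 are shared with the gene model AC068831.7 (GENCODE v29). NUSAP1 likewise shares 1787 of 2454 exon bases with AC087721.2. Neither gene model is among the listed genes under these names, so no reads were listed for them. Whether the overlaps affected the counts of PRC1 or NUSAP1 was not tested, as the annotation used for counting is not stated. KIF14, a motor of the midbody, was also higher in ROBO1pos (0.27). The central spindle motors KIF20A (0.021) and KIF23 (-0.078) did not pass. Relative to their neighbours, 5 of the 7 were called higher in ROBO1neg and none higher in ROBO1pos.

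**Figure D3:**
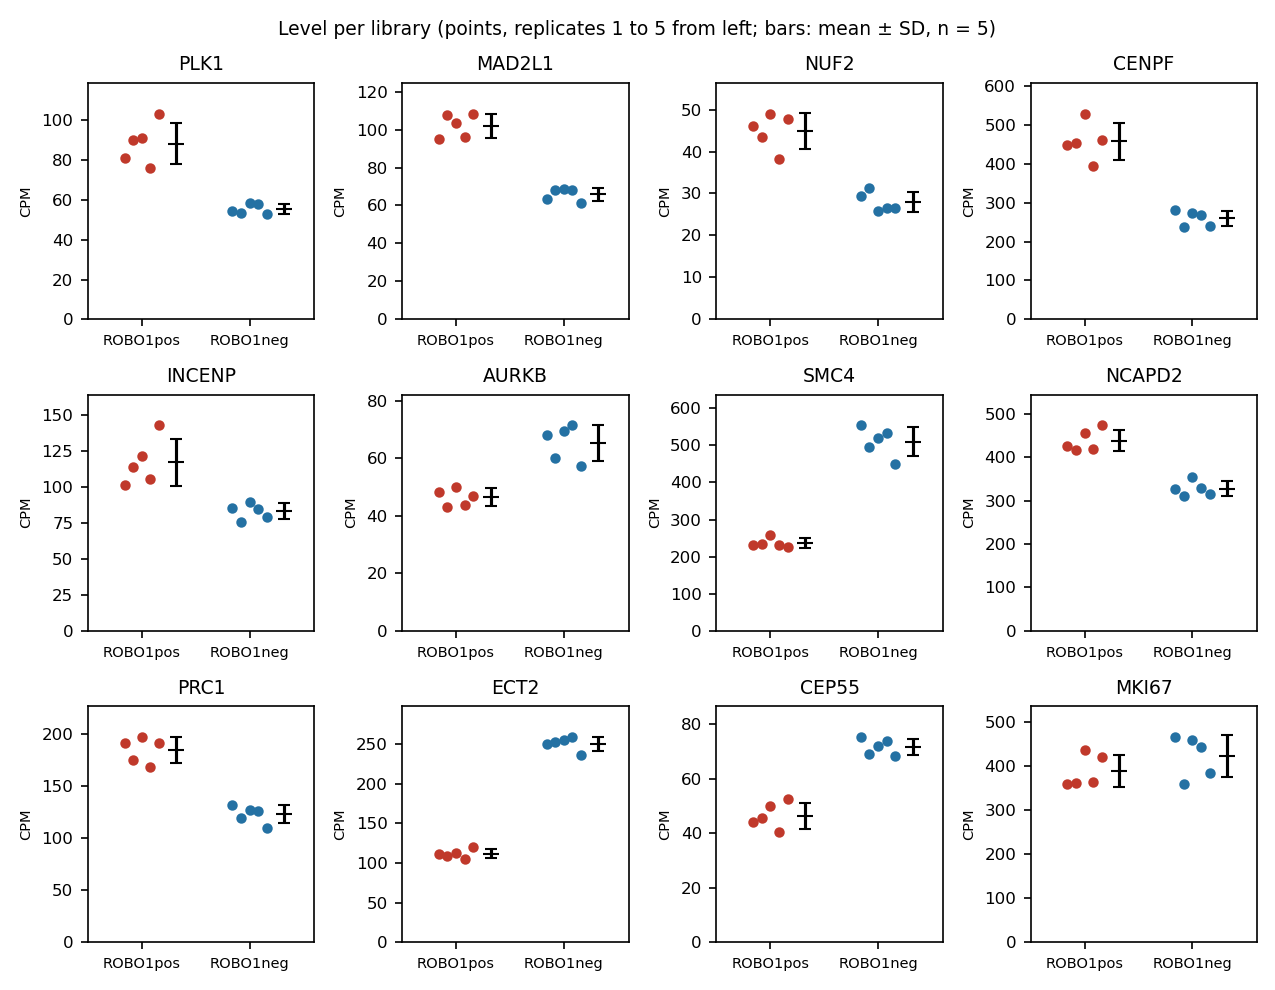
Level of 12 of the genes in each library (CPM, y axis from 0); points are replicates 1 to 5 from left to right within a population, and black marks give the mean ± SD. PLK1, MAD2L1, NUF2, CENPF, INCENP, NCAPD2 and PRC1 lie higher in all ROBO1pos libraries, AURKB, SMC4, ECT2 and CEP55 in all ROBO1neg libraries, and MKI67 overlaps.

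Levels of different genes can be set side by side only per length, here as CPM per kilobase of merged GENCODE v29 exons, an annotation that may differ from that used for counting. TOP2A (116 CPM per kilobase in ROBO1pos and 105 in ROBO1neg) and PTTG1 (101 and 101) were the highest of the 58 in both populations. KIFC1 (0.262 and 0.214), SPC25 (1.53 and 2.07) and SPC24 (4.19 and 3.56) were the lowest in both. For KIFC1 the rank may not give its true level. Most listed genes around it were also near 0, among them the ribosomal protein gene RPS18 at a mean of 0.0454 CPM. Whether reads were lost there was not tested. CDC25B was the fourth highest in ROBO1pos (83.7) and had rank 8 in ROBO1neg (61.8).

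Within each population the 58 genes varied together from library to library. In ROBO1pos, replicate 4 was the lowest of the 5 libraries for 42 of the 58 genes (72.4%), while it was the lowest for 15.1% of all genes tested. In ROBO1neg, replicate 5 was the lowest for 40 of the 58 (69.0%), against 21.4% of all genes tested. ROBO1pos replicates 5 and 3 were the highest for 27 and 21 of the 58 (46.6% and 36.2%), against 26.3% and 16.5% of all genes tested. Summed over the 58 genes, ROBO1pos libraries held 7328, 7232, 7904, 6778 and 7808.5 CPM and ROBO1neg libraries 7249, 6616, 7223, 7253 and 6387. The sums of the populations overlapped, with means of 7410.0 ± 459 and 6946 ± 414 CPM (SD, n = 5). Replication genes did not share the low library in ROBO1pos. Replicate 4 was the lowest for 4 of 60 of them (6.67%) and replicate 1 for 31 (51.7%), against 15.1% and 24.1% of all genes tested. In ROBO1neg replicate 5 was the lowest for 35 of the 60 (58.3%), against 21.4% of all genes tested. Without both ROBO1pos replicate 4 and ROBO1neg replicate 5, an alternative chosen after the data were seen, 33 of the 58 were higher in ROBO1pos and 10 higher in ROBO1neg.

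**Figure D4:**
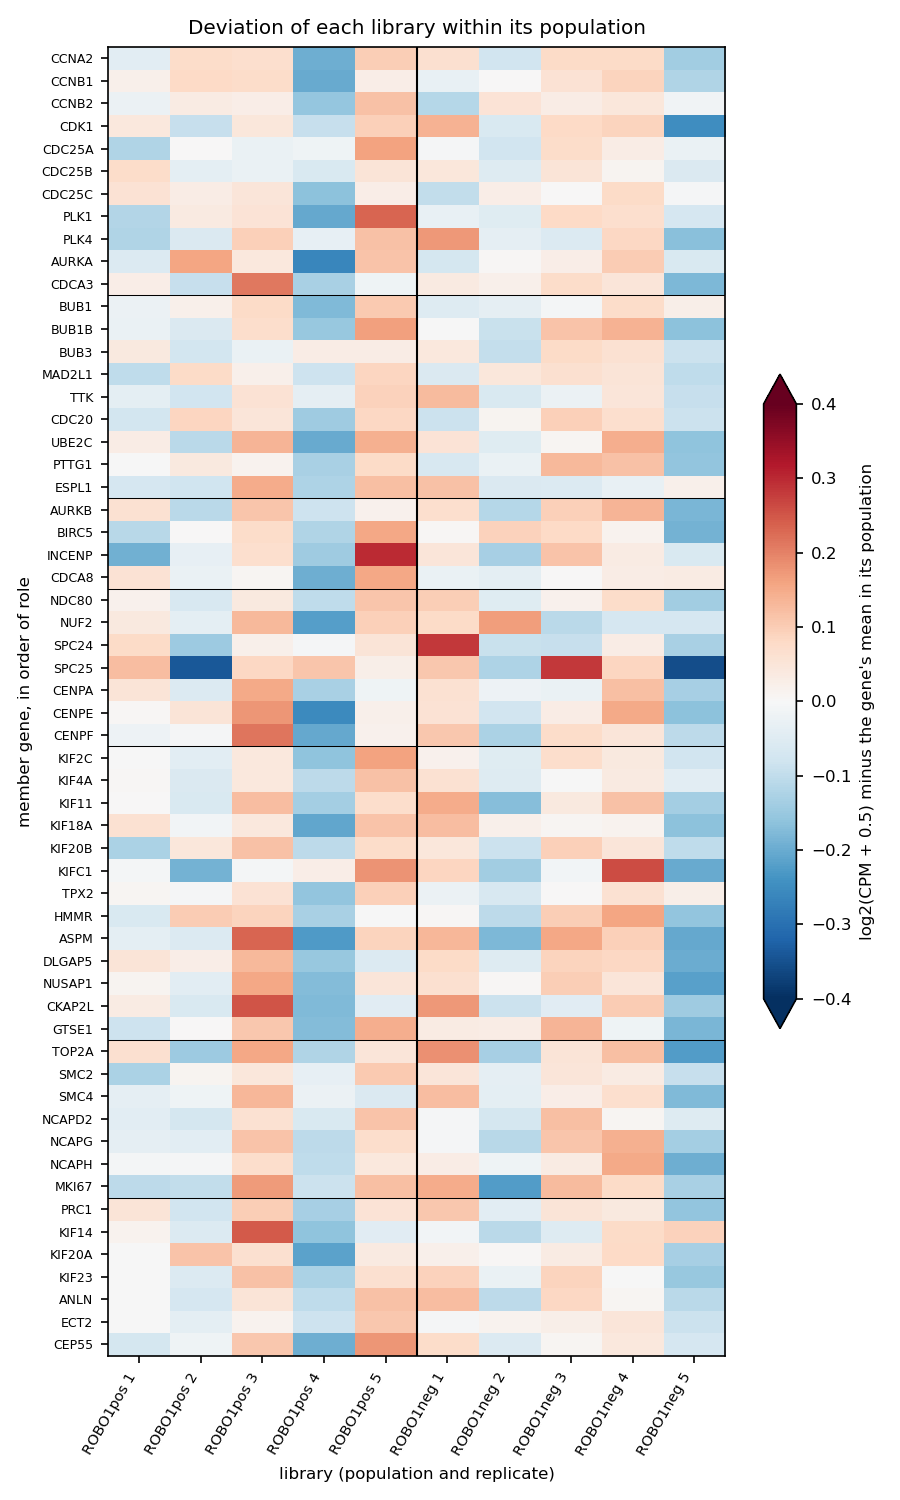
Deviation of each library from its own population's mean, as log2(CPM + 0.5), for the 58 genes (rows, in order of role) in the 10 libraries (columns); blue is below and red above the mean. The columns of ROBO1pos replicate 4 and ROBO1neg replicate 5 are mostly blue, with median deviations of -0.13 and -0.13.

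Many of these genes had the same direction as their chromosomal neighbours. The 58 genes lie on 20 chromosomes, and each was compared with the median of 20 tested genes on either side of it, by RefSeq positions (GRCh38.p14). These medians ran from -0.82 around ECT2 (chr3) to 0.85 around CENPF (chr1). Of the 43 called genes, 35 (81.4%) had the sign of their neighbours' median, against 65.2% of all called genes with a position. Across the 58 genes Pearson's r between a gene and its neighbours' median was 0.58, and 0.23 across all 14590 genes with a position; the values share the same libraries, and genes close together share neighbours. ECT2 (chr3:172750726-172829265) and SMC4 (chr3:160399650-160434953) both lie on the long arm of chromosome 3 among genes with medians of -0.82 and -0.72. With the neighbours' median entered as an offset of the ROBO1pos libraries, ECT2 was at -0.35 and SMC4 at -0.39, both still called. The offset was entered as a fixed value, so the spread among the neighbours does not enter the adjusted p behind these calls. Such a call gives a gene's direction relative to its neighbours, not that of its own level. CENPF (chr1:214603195-214664571) went from 0.81 to -0.043 and was no longer called. PRC1 (chr15:90966040-90994535) went from 0.59 to -0.27 and was called towards ROBO1neg relative to its neighbours, though its own level was higher in ROBO1pos.

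After this offset 22 of the 58 genes were called higher in ROBO1pos relative to their neighbours and 17 higher in ROBO1neg. The shares of all genes with a position were 39.8% and 40.7% (80.5% in either direction), and the median of the 58 was 0.039. Of the 33 genes first called higher in ROBO1pos, 17 kept that call, 11 lost it and 5 were called the other way. PLK1 (0.53), CDC25B (0.41), NUF2 (0.44), KIF11 (0.55), INCENP (0.41) and MAD2L1 (0.25) stayed higher in ROBO1pos. CEP55 (-0.60) and ANLN (-0.83), whose neighbours' medians were -0.03 and 0.48, stayed higher in ROBO1neg. AURKB (-0.084) and BIRC5 (-0.052) lost their calls. ESPL1 (0.28) and SMC2 (0.39) were called towards ROBO1pos relative to their neighbours. For both, the level of every ROBO1neg library was above that of every ROBO1pos library. On the same relative scale 3 genes not called at first, TOP2A (0.69), AURKA (0.55) and DLGAP5 (0.23), were called towards ROBO1pos. Another 6 not called at first were called towards ROBO1neg. They were KIF23 (-0.65), PLK4 (-0.34), KIF18A (-0.29), MKI67 (-0.26), NCAPG (-0.20) and KIF4A (-0.18). The number of gene copies was not measured here.

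**Figure D5:**
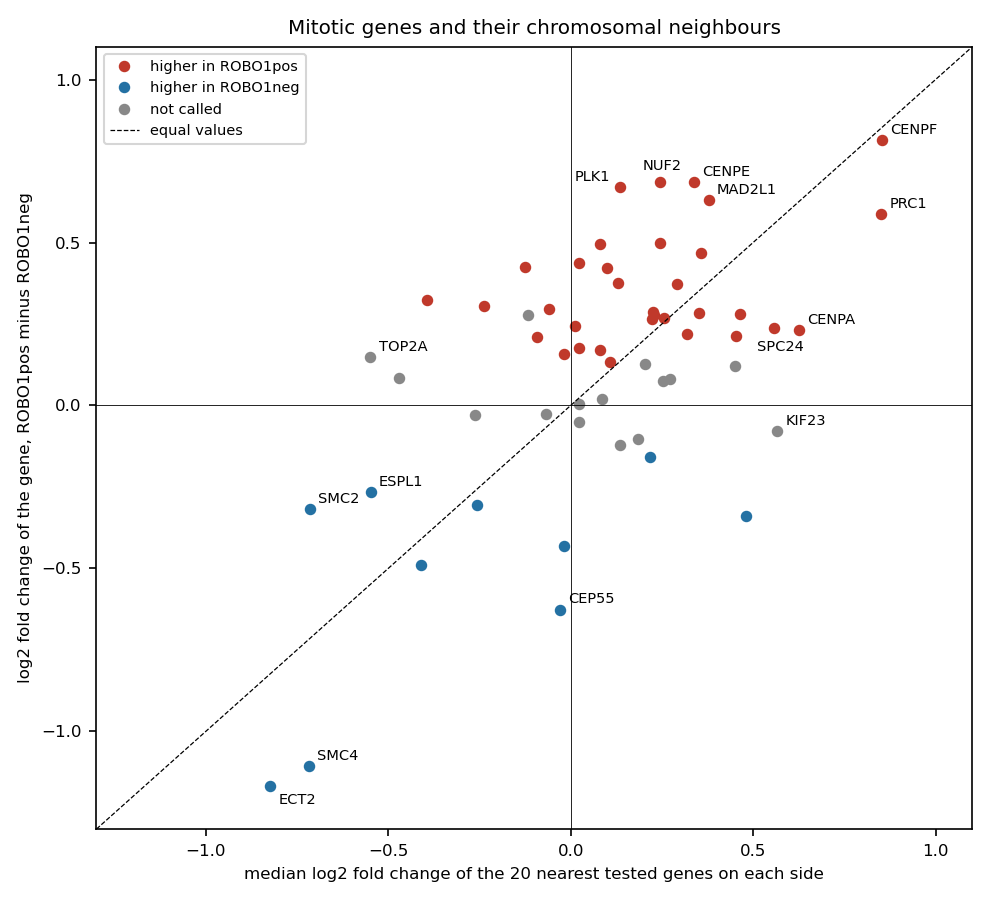
Log2 fold change of each of the 58 genes (y axis) against the median of its 20 closest tested genes on each side (x axis, log2); colours give the call and the dashed line marks equal values. ECT2 and SMC4 lie at the lower left, CENPF and PRC1 at the upper right, and CEP55 and PLK1 away from the line.

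The other genes of mitosis, listed beside the 58, showed no common direction. Of 32 tested further kinetochore and centromere genes, 15 were higher in ROBO1pos and 10 higher in ROBO1neg, with a median log2 fold change of 0.046. NSL1 of the MIS12 complex (0.88) and ZWILCH of the RZZ complex (0.55) had the smallest adjusted p towards ROBO1pos, and the inner kinetochore genes CENPQ (-0.87) and CENPL (-0.78) towards ROBO1neg. Of 17 further genes of the anaphase-promoting complex, 8 were higher in ROBO1pos, among them UBE2S (0.66) and ANAPC7 (0.38), and 7 higher in ROBO1neg, among them ANAPC13 (-0.83) and FZR1 (-0.94), which encodes CDH1, the activator that replaces CDC20 late in mitosis. Cohesin and further condensin genes gave 7 higher in ROBO1pos and 4 higher in ROBO1neg of 16; NCAPG2 of condensin II was at -1.09, with PDS5B at -0.72, while the cohesin loader MAU2 was at 0.93 and NCAPD3 of condensin II at 0.34. Among 36 spindle and centrosome genes, 18 were called towards ROBO1pos and 10 towards ROBO1neg, with HAUS1 of the augmin complex at 1.496, the pericentriolar scaffold PCNT at 0.81, the kinase NEK6 at -1.75 and CKAP2 at -0.63. Of 16 further entry, exit and cytokinesis genes, 9 were called towards ROBO1neg and 4 towards ROBO1pos. In that list WEE1, the kinase that restrains CDK1, was at 85.2 ± 4.23 CPM in ROBO1pos against 53.04 ± 3.53 in ROBO1neg (0.68) and was higher in ROBO1pos, as were the CDC25 phosphatases that oppose it. PKMYT1, the other kinase that inhibits CDK1, was higher in ROBO1neg, at 37.1 ± 5.098 CPM in ROBO1pos against 44.5 ± 1.71 in ROBO1neg (-0.26). CCNF (0.67) was also higher in ROBO1pos, and the formin DIAPH3 (-1.54) and the phosphatase CDC14A (-1.49) were higher in ROBO1neg. Counts in these lists are read against the 41.6% and 40.4% of all genes called in each direction.

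Of 22 transcription regulators of the cell cycle, 11 (50%) were called towards ROBO1neg and 7 (31.8%) towards ROBO1pos, against 40.4% and 41.6% of all genes tested. FOXM1, the activator of late cycle genes, was at 219 ± 18.2 CPM in ROBO1pos against 224 ± 7.34 in ROBO1neg and did not pass (-0.032, edgeR adjusted p = 0.582). MYBL2, its partner on the CHR, was at 144 ± 10.3 CPM in ROBO1pos against 171 ± 15.7 in ROBO1neg (-0.25, edgeR adjusted p = 0.00355). LIN9 encodes a core subunit of the MuvB complex, which is part of DREAM and also joins MYBL2. LIN9 was higher in ROBO1pos, at 37.2 ± 2.94 CPM in ROBO1pos against 17.98 ± 0.417 in ROBO1neg (1.05). E2F1, an activator of S phase genes, was at 68.9 ± 2.83 CPM in ROBO1pos against 108 ± 7.85 in ROBO1neg (-0.65), and the E2F repressors diverged, with E2F8 at -1.92 and E2F7 at 0.58. RB1, which encodes the retinoblastoma protein, was at -1.25, beside a neighbours' median of -0.52.

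DNA replication genes act in the S phase that precedes mitosis. Of 60 tested, 25 (41.7%) were called towards ROBO1neg, against 40.4% of all genes tested, and 17 (28.3%) towards ROBO1pos, against 41.6%. The other 18 were called in neither direction, and the median log2 fold change of the 60 was -0.079. TK1, thymidine kinase, was at 47.2 ± 4.06 CPM in ROBO1pos against 164 ± 11.4 in ROBO1neg (-1.79), and RRM2, which helps make deoxynucleotides, lay at 105 ± 9.98 CPM in ROBO1pos against 313 ± 26.3 in ROBO1neg (-1.57). CDC7, a kinase that fires origins (0.81), and POLD2, a subunit of DNA polymerase delta (0.48), were higher in ROBO1pos. The difference between the lists was not tested.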

How the data were processed

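The authors deposited raw read counts per gene symbol, 1 file per library; per the submitters' processing notes the tools included STAR 2.6.0c, SAMtools 1.9, DESeq2 1.24.0 and the build GRCh38. The sources used here do not state how reads were counted, or the strand setting and annotation. The library kit, per the labels, kept strand and took polyadenylated RNA. Entries naming no gene (no feature, 14.1% to 16.7% of listed reads; several places, 20.5% to 26.2%; ambiguous, 0.806% to 0.881%) stayed out of library sizes and tests. Counts were fitted with edgeR 4.0.16 in R 4.3.3: filterByExpr, TMM, quasi-likelihood fits on population alone, and Benjamini-Hochberg adjustment over 14932 genes, called under 0.05. The fit was tested on simulated data. CPM are mean ± SD over 5 libraries.

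The results were recomputed with RLE, upper quartile or library size scaling, with other filters (1 count in all, or 5 CPM in 5 libraries), DESeq2 1.42.0, limma-voom (3.58.1), a 1.5-fold test, a replicate block, single libraries left out, and the neighbour offset. No pair of libraries of 1 population was a duplicate (variance 3.55 to 22.0 times that of sampling). Members and lists were chosen with earlier results of these data known. Named genes were, per role and direction, the 2 called with the smallest adjusted p and any called at a log2 fold change of 1 or more, per other list 2 in each direction, and FOXM1, MYBL2, E2F1 and LIN9. From the other lists MAD1L1, ZW10, KNTC1, SPDL1 and PKMYT1 were named outside this rule. Of the other lists, 3 genes were listed under older symbols. Positions were matched by symbol for 13663 genes and by an older name for 927.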

Additional observations from a re-analysis of the deposited data

Results flagged for a closer look

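In 5 of the 116 groups of 5 libraries (58 genes in 2 populations), 1 library stood further from the others than Dixon's test allows at 95%; chance gives about 1 in 20 such groups, or 5.8. CCNB1 was at 151 CPM in ROBO1pos replicate 4 against 176 to 184 in the other ROBO1pos libraries. CDC25C was at 28.005 CPM in the same library against 32.05 to 32.7. CDCA3 was at 28.2 CPM in ROBO1neg replicate 5 against 32.5 to 33.7. SPC25 was at 1.52 CPM in ROBO1pos replicate 2 against 2.10 to 2.28. SMC4 was at 259 CPM in ROBO1pos replicate 3 against 227 to 234, while all ROBO1neg libraries were at 450.0 CPM or more.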

How the results depend on the processing

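Under RLE, upper quartile and library size scaling, the other filters, DESeq2, limma-voom and the replicate block, 31 to 38 of the 58 genes were higher in ROBO1pos and 8 to 10 higher in ROBO1neg, and no called gene changed sign. Upper quartile scaling also called CCNB1, PLK4, KIF4A, TOP2A and NCAPG. Leaving out 1 library gave 30 to 34 and 9 to 11, with a median log2 fold change of 0.17 to 0.25. Calls lost without 1 library were those of GTSE1 (any library but ROBO1pos replicates 1 and 4 and ROBO1neg replicate 3), SPC24 (any but ROBO1pos replicate 2 and ROBO1neg replicate 1), SPC25 (ROBO1pos replicate 2, ROBO1neg replicates 1, 3 and 4) and TPX2 (ROBO1pos replicates 3 and 5, ROBO1neg replicate 2), while AURKA, CCNB1, KIF18A, MKI67, PLK4 and TOP2A each passed in 1 or 2 fits. The replicate block also called TOP2A. The 1.5-fold test left 1 gene higher in ROBO1pos and 2 higher in ROBO1neg. With the neighbours' median removed, 17 genes were called higher in ROBO1neg relative to those neighbours and the median was 0.039. A change of sign was seen for 18 genes, of which 4 (CCNB1, PTTG1, NUSAP1 and KIF20A) were called neither before nor after. The other 14 were CCNA2 (-0.24), PLK4 (-0.34), CDCA3 (-0.073), ESPL1 (0.28), SPC24 (-0.32), CENPA (-0.40), CENPF (-0.043), KIF2C (-0.10), KIF4A (-0.18), DLGAP5 (0.23), SMC2 (0.39), NCAPG (-0.20), NCAPH (-0.19) and PRC1 (-0.27). Among these, CDCA3, CENPF and KIF2C were no longer called. Replicate numbers are shared by the populations but pair nothing in the labels: deviations of same-numbered libraries correlated at 0.062 to 0.17, and for 3 of 5 numbers the 2 libraries correlated best with each other. With the replicate block 34 genes were higher in ROBO1pos and 10 higher in ROBO1neg. Counts were lowest for KIFC1 (at least 11 reads per library) and SPC25 (at least 41).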
